A study of Mus musculus with 8 samples.

Results

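The 10 genes described here encode enzymes that can chemically change doxorubicin (DOX) or related drugs and pumps that can carry such compounds out of a cell: Cbr1, Cbr3, Por, Xdh, Sult1a1, Abcb1a, Abcb1b, Abcc1, Abcc4 and Abcg2. Members were chosen by name, as every probe set whose only gene symbol in the platform annotation is one of these. The rule found 12 probe sets for 9 of the 10 genes, among 45037 probe sets that are not array controls and 18193 genes with a probe set. Por, the cytochrome P450 reductase that feeds electrons into the quinone ring of DOX, had no probe set under this rule and was not analysed here. Of the 12 probe sets, 11 passed the filter on dim signal and were tested, covering all 9 measured genes.

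The samples were hearts of male mice aged 6 to 8 weeks, with 2 arrays in each of 4 groups. MT+/+ mice had working metallothionein genes, and the mice labelled MT-/- are stated to be null for both major forms. Mice of each genotype received DOX at 15 mg/kg in a single intraperitoneal injection or the same volume of saline (NS), and hearts were taken on day 4. The sources used here do not name the strain or the type of null allele. The labels call the replicates biological, without saying more on their source, and say nothing of pooling.

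DOX is an anthracycline. Carbonyl reductases and aldo-keto reductases turn its side chain ketone into an alcohol, giving doxorubicinol, a metabolite long linked to harm in heart muscle. Flavin enzymes such as POR and xanthine dehydrogenase can instead pass a single electron to the quinone, and the semiquinone that results hands it to oxygen as superoxide. ATP-driven pumps of the ABC family export the drug or its conjugates, and in the heart several of them sit in the capillary endothelium. Sulfotransferases add sulfate to phenols and so prepare many drugs for export.

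Facts of the whole set bear on what follows. The deposited values are linear intensities, the brightness of a probe set on an array, and the log2 values of arrays of a group correlated at 0.976 to 0.984. Mt1 gave intensities of 3722 to 9285 on the MT+/+ arrays and of 4667 to 12850 on the arrays labelled MT-/-, and Mt2 gave 452 to 2732 and 968 to 2218, so RNA of the genes stated to be null was detected and the groups are called by their labels. Heart muscle markers were bright on all 8 arrays. The measured hepatocyte markers did not read alike. Albumin (Alb) read 50.0 to 66.0, at percentiles 29.4 to 38.4 of the arrays, and Fgb lay at percentiles 6.45 to 15.2. Apoa1 lay at percentiles 54.0 to 76.6 and Ttr at 58.4 to 71.6. The 4 summed hepatocyte markers lay between 301 and 431 and the 3 summed adipocyte markers between 135 and 189.

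Changes were fitted with limma after quantile normalization, as differences of log2(intensity + 16) with their standard errors, and an adjusted p is a limma p-value after Benjamini-Hochberg adjustment over all tested probe sets, with 0.05 as the threshold.

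After DOX, averaged over both genotypes, Sult1a1, Xdh, Abcg2 and the dimmer probe set of Abcb1a rose, and none of the 11 tested member probe sets fell. Sult1a1, which sulfates phenols, rose 4.18-fold, Xdh, which makes urate and can reduce DOX, 2.56-fold, the P-glycoprotein gene Abcb1a 1.80-fold by that probe set and the BCRP pump gene Abcg2 1.69-fold. The Abcg2 call was lost in some fits with an array left out. The carbonyl reductase genes Cbr1 and Cbr3 did not pass the test, nor did Abcb1b, Abcc1 or Abcc4. Neither did the brighter Abcb1a probe set (log2 0.06, adjusted p 0.830). Thus 4 of 11 member probe sets were past adjusted p 0.05 on the higher side, where 7.03% of all 24751 tested probe sets were, and 0 on the lower side, where 6.84% were. The median log2 change of the 11 was 0.26, against 0.00 over all tested probe sets. Passing the filter depended on signal: the dimmer Abcb1a probe set reached its array's median on all 4 DOX arrays and 1 saline array, and the tested Abcb1b probe set on 3 DOX arrays and 0 saline arrays, so these counts and the median describe the probe sets that passed and support nothing further.

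In MT+/+ hearts alone 2 of the 11 rose (Xdh and Sult1a1) and 0 fell, where 1.22% and 1.26% of all tested probe sets did. In MT-/- hearts the same 2 genes rose and 0 fell, where 2.83% and 3.38% did. The arrays of a replicate number deviated together, and with that number as a block the count of rises became 4 in MT+/+ (background 6.22%), 5 in MT-/- (8.06%) and 6 on average (13.8%). The 5 and the 6 include the Abcb1b probe set that reached its array's median on DOX arrays alone, and all 3 counts include the dimmer Abcb1a probe set, so they too are a description and support nothing. On 5 of the 11 probe sets all 4 DOX arrays read above all 4 saline arrays, where 9.61% of all tested probe sets did so, and on 0 did they all read below, where 8.83% did. Those 5 also include the dimmer Abcb1a probe set, so this count is a description and supports nothing either.

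**Figure D1:**
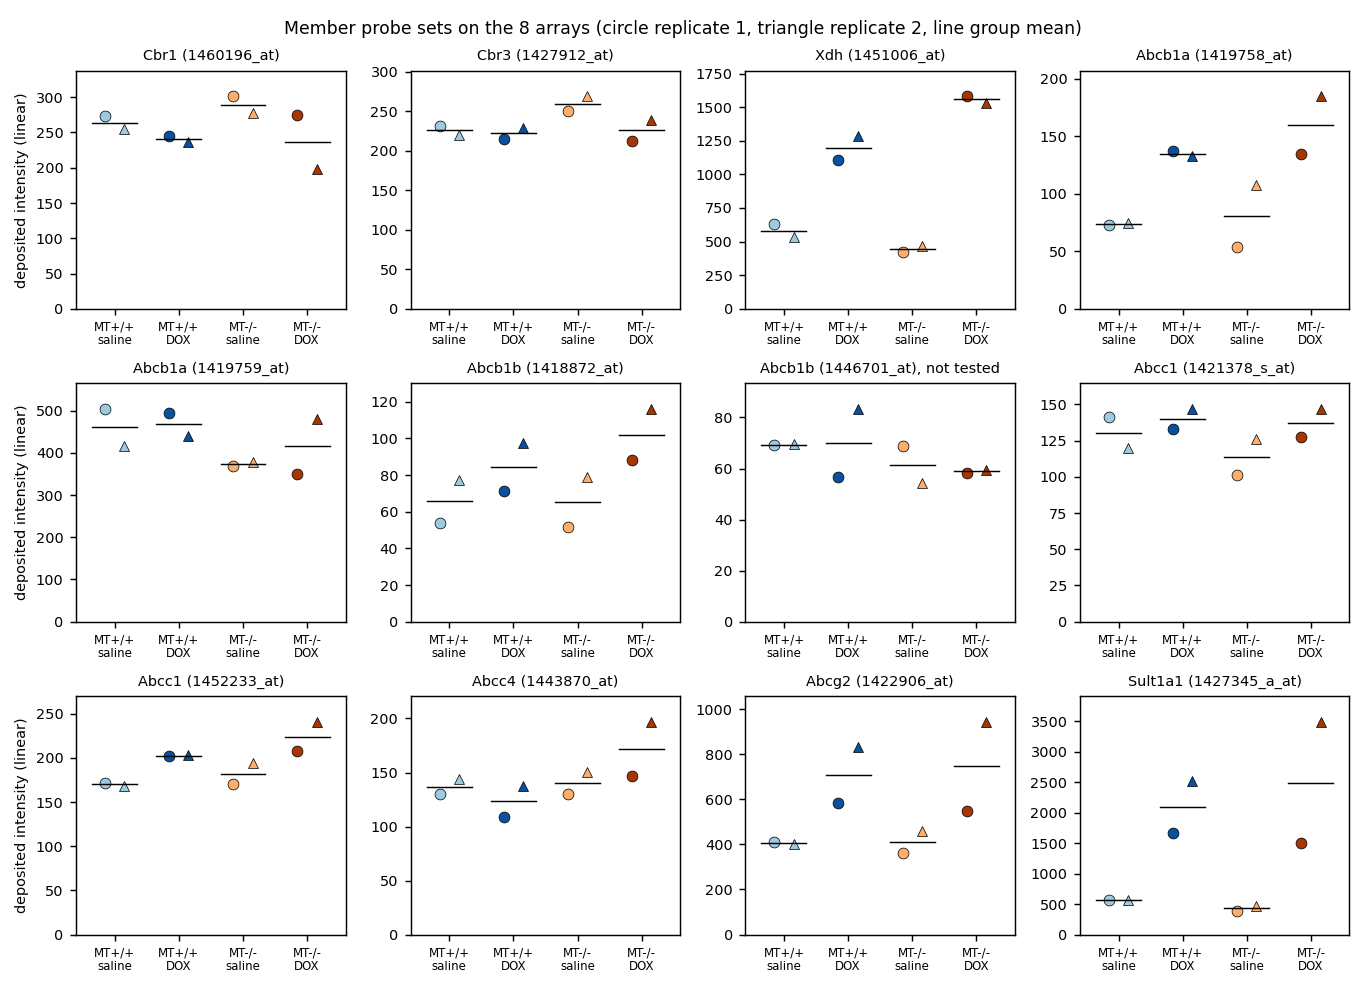
Deposited intensity (linear, from 0) of the 12 member probe sets on the 8 arrays, with circles for replicate 1, triangles for replicate 2 and a line at each group's mean of 2. Sult1a1, Xdh and Abcg2 lie higher on every DOX array than on any saline array, while Cbr1 and Cbr3 overlap.

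**Figure D2:**
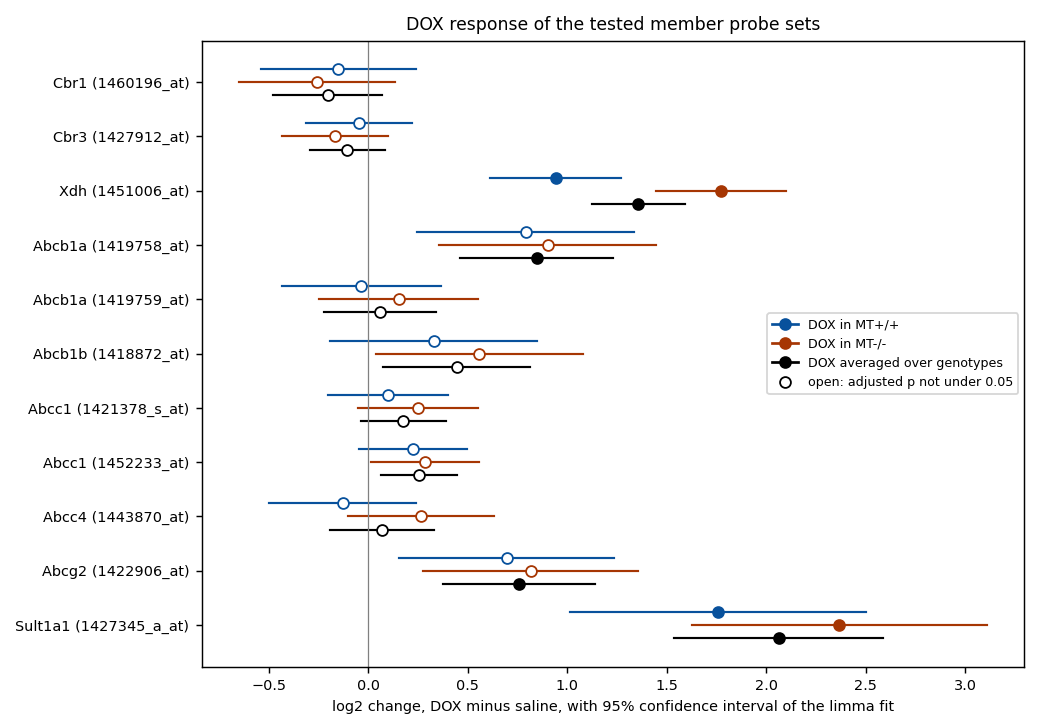
Log2 change of the 11 tested probe sets after DOX with the 95% confidence interval of the limma fit, in MT+/+ (blue), in MT-/- (brown) and averaged (black), filled where adjusted p is under 0.05. Filled points are those of Sult1a1 and Xdh in all 3 comparisons and of Abcg2 and the Abcb1a probe set 1419758_at on average.

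RefSeq's promoter table (GRCm38.p6) held 11 start sites for 8 of the 10 genes, with Xdh and Abcc1 the missing entries. The 250 bases before a start were searched on both strands for the cores of the antioxidant response element (TGACNNNGC), the glucocorticoid response element (ACANNNTGT) and the xenobiotic response element (GCGTG), and for the E-box (CACGTG), the GC box (GGGCGG) and the TATA box (TATAAA). Over all 32851 windows in the table the shares with a match were 10.2%, 5.84%, 28.2%, 6.02%, 32.7% and 12.4% in that order. Shown are the window of the member with the largest rise and those of the neighbouring P-glycoprotein genes, whose tested probe sets differed in their values. They lie at chr7:126676419-126676668 on the minus strand (Sult1a1), chr5:8566841-8567090 on the plus strand (Abcb1a) and chr5:8797897-8798146 on the plus strand (Abcb1b). Each is printed 5′ to 3′ toward the start, with matches to any of these motifs in capitals.
Sult1a1: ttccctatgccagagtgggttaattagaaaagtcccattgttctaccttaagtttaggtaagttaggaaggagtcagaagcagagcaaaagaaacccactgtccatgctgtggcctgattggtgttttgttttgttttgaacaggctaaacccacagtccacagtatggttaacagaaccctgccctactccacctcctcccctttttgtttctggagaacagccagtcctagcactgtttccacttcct
Abcb1a: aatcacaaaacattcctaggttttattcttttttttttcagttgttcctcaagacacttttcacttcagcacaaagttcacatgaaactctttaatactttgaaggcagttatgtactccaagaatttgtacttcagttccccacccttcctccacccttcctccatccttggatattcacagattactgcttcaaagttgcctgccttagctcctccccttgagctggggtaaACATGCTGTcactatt
Abcb1b: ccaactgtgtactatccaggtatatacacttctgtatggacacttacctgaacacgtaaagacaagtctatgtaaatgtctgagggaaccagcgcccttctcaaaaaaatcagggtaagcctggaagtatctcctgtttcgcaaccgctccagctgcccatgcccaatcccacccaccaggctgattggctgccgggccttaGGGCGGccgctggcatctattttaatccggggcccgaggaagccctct
The Abcb1a window held a glucocorticoid element core 16 bases before the start, the only such match among the 11 windows, and the Abcb1b window a GC box 48 bases before it. The Sult1a1 window matched none of the 6 motifs, which says only that these letters are not in these 250 bases. The antioxidant core was found in 2 windows, both of Abcc4, a gene with no call, and in neither carbonyl reductase gene. The 3 Abcg2 windows matched the GC box in 2 cases and no other motif.

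Cbr1 encodes the main cytosolic carbonyl reductase, and Cbr3 its close relative, the neighbouring gene on chromosome 16. The Cbr1 probe set (1460196_at) read 273 and 254 in MT+/+ hearts under saline and 245 and 237 after DOX. In MT-/- hearts it read 301 and 277 under saline, and 275 and 199 after DOX. In deposited intensity the DOX arrays were the lower ones in each genotype, but after normalization the MT-/- arrays of the treatments overlapped, as did the DOX and saline arrays over both genotypes. The log2 change was -0.21 ± 0.12 on average (limma standard error, 95% interval -0.48 to 0.07, adjusted p 0.329), -0.15 in MT+/+ (0.738) and -0.26 in MT-/- (0.473).

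Cbr3 (1427912_at) moved as little. Its intensity was 232 and 220 under saline and 215 and 230 with DOX in MT+/+ hearts. For MT-/- hearts it was 251 and 269, then 213 and 239, so DOX and saline overlapped over the 8 arrays. The average change was -0.11 ± 0.08 (95% interval -0.30 to 0.08, adjusted p 0.471), so a fall of 0.30 or a rise of 0.08 would still be inside the interval. Within each replicate number the DOX array read lower than the saline array of the same genotype in 4 of 4 pairs for both genes, by log2 0.13 to 0.38 for Cbr1 and 0.01 to 0.23 for Cbr3 after normalization. With the replicate block both still missed the threshold (adjusted p 0.114 and 0.310).

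Xdh encodes xanthine dehydrogenase, an enzyme of purine breakdown, which can be converted to an oxidase that makes superoxide and peroxide. Its probe set (1451006_at) read 630 and 531 under saline and 1110 and 1287 after DOX in MT+/+ hearts. In MT-/- hearts it read 420 and 465 under saline and 1582 and 1532 after DOX. All 4 DOX arrays lay above all 4 saline arrays, the MT-/- saline arrays were the lowest of the 8 and the MT-/- DOX arrays the highest.

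On the log2 scale Xdh rose by 0.94 ± 0.14 in MT+/+ hearts, or 1.92-fold (adjusted p 0.0162). The MT-/- hearts showed a rise of 1.77 ± 0.14, or 3.42-fold (adjusted p 8.9e-04), and the average was 1.36 ± 0.10 (adjusted p 1.9e-04). By p it ranked 58 of 24751 probe sets for the average and 25 in MT-/-. The MT-/- and averaged calls stood whichever array was left out (adjusted p up to 0.0124 and 0.0018). The MT+/+ call was lost without MT+/+ saline 2 (0.106), MT+/+ DOX 1 (0.0641) or MT+/+ DOX 2 (0.121).

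The response of Xdh was larger in MT-/- than in MT+/+ by log2 0.83 ± 0.20 (95% interval 0.37 to 1.29), the widest such gap among the 11 probe sets. Its unadjusted p of 0.0031 ranked 25 of 24751, but after Benjamini-Hochberg adjustment the value was 1, or 0.566 with the replicate block, so the difference between genotypes did not pass. It was positive in all 16 alternative fits run, between 0.70 and 0.96. Those fits reuse the same arrays, and some cannot change this value, so they give no further support. The genotypes differed by -0.49 ± 0.14 under saline (adjusted p 0.406) and by 0.34 ± 0.14 after DOX (0.663). The 2 arrays of each genotype did not overlap in either treatment, which held for 20% of all tested probe sets in that direction under saline and for 16.5% after DOX.

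Sult1a1, on chromosome 7, encodes the main phenol sulfotransferase. Its probe set (1427345_a_at) carries a suffix that Affymetrix gives where several transcripts of a gene can match. The values were 561 and 568 in MT+/+ hearts under saline, and 1666 and 2523 after DOX. In MT-/- hearts it read 390 and 476 under saline and 1497 and 3488 after DOX. Every DOX array was above every saline array, and in both genotypes the DOX array of replicate 2 was the brighter. The percentile of the probe set within its array went from 88.0 to 92.1 under saline to 97.0 to 98.6 after DOX.

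The log2 rise of Sult1a1 was 1.76 ± 0.33 in MT+/+ hearts, or 3.38-fold (adjusted p 0.0331). It was 2.37 ± 0.33 in MT-/- hearts, or 5.16-fold (adjusted p 0.0055), and 2.06 ± 0.23 on average (adjusted p 0.0010). Within replicate 1 the log2 difference between DOX and saline was 1.46 in MT+/+ and 1.89 in MT-/-, and within replicate 2 it was 2.05 and 2.85. The MT-/- and averaged calls stood with any array left out (adjusted p up to 0.0421 and 0.0058). The MT+/+ call did not survive leaving out the first (0.151) or second (0.134) MT+/+ saline array, the first (0.0765) or second (0.197) MT+/+ DOX array, or either MT-/- saline array (0.0555 each). The difference of the response between genotypes was 0.61 ± 0.46 (95% interval -0.44 to 1.66, adjusted p 1).

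Abcb1a and Abcb1b encode the mouse P-glycoproteins, the classic pumps of anthracycline resistance, whose promoter windows are shown with that of Sult1a1 and which share most of their sequence and follow each other on chromosome 5. Each had 2 probe sets, and those of Abcb1a disagreed. The dimmer (1419758_at) read 73.0 and 74.5 in MT+/+ under saline and 137 and 133 after DOX. In MT-/- its saline arrays read 54.1 and 107 and its DOX arrays 135 and 185. All its DOX arrays exceeded all its saline arrays. The brighter (1419759_at) read 504 and 416 under saline and 494 and 441 with DOX in MT+/+ hearts, then 368 and 378 against 350 and 481 for MT-/- hearts, with DOX and saline overlapping in both genotypes.

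The dimmer Abcb1a probe set reached its array's median on 1 of 4 saline arrays and on all 4 DOX arrays. The filter asks for 2 arrays, so it entered the test through the group where it is high, and its values are a description. Its change was log2 0.85 ± 0.17 on average (adjusted p 0.0130). In MT+/+ its 0.79 ± 0.24 missed the threshold (adjusted p 0.135, or 0.0243 with the replicate block and 0.0327 when the MT-/- arrays were left out of the model). In MT-/- its 0.90 ± 0.24 missed it too (0.0634, or 0.0098 blocked and 0.0207 without MT-/- saline 2). The brighter, which stands for the gene by the rule on mean signal, had 0.06 ± 0.12 (95% interval -0.22 to 0.34, adjusted p 0.830). The mean of both, which carries the same limit, was 0.45 and passed (adjusted p 0.0310), so whether Abcb1a is called depends on the probe set. Which transcripts each of them reads was not tested.

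Abcb1b stayed dim. Its tested probe set (1418872_at) read 54.0 and 77.3 under saline and 71.2 and 97.5 with DOX in MT+/+ hearts. For MT-/- hearts the values were 51.7 and 79.0, then 88.0 and 116. Replicate 2 was brighter in all 4 groups, and DOX and saline overlapped over the 8 arrays although DOX was higher in 4 of 4 same-numbered pairs. The probe set entered the test through 3 DOX arrays and 0 saline arrays, that is through the group where it is high, so its values are a description. The change of 0.44 ± 0.16 on average missed the threshold (adjusted p 0.112, or 0.0024 with the replicate block), as did 0.56 in MT-/- (0.212, or 0.0073 blocked). The other Abcb1b probe set (1446701_at) read 54.4 to 83.3, below the array's median on all 8 arrays, and was not tested.

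**Figure D3:**
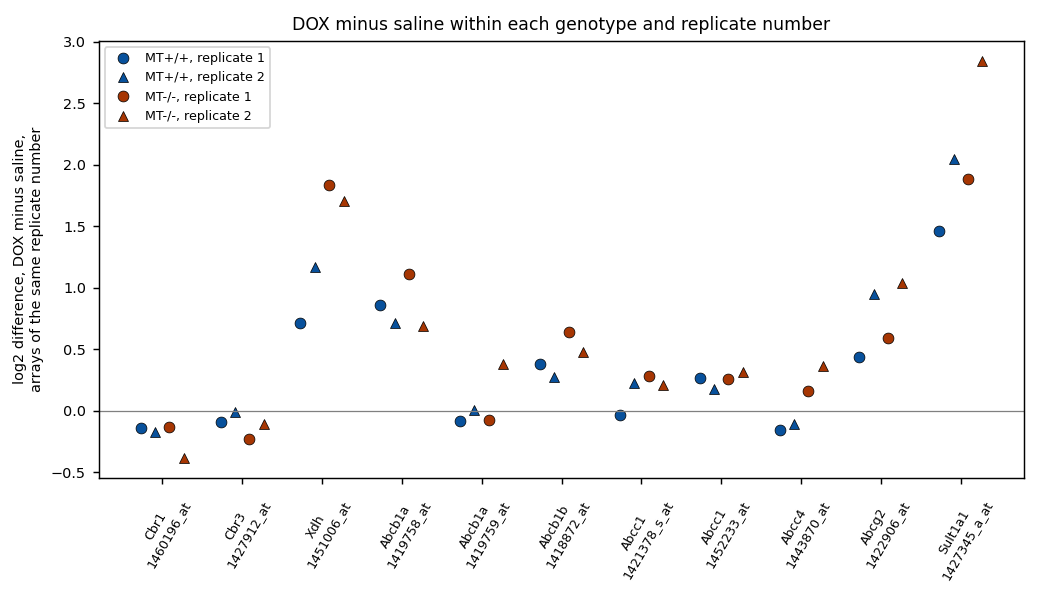
Log2 difference (DOX minus saline, after normalization) between arrays of the same genotype and replicate number for the 11 tested probe sets, blue for MT+/+, brown for MT-/-, circles for replicate 1 and triangles for replicate 2. All 4 values are above 0 for Sult1a1, Xdh, Abcg2, Abcb1b, the dimmer Abcb1a and the brighter Abcc1 probe set, and below 0 for Cbr1 and Cbr3.

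Abcg2 encodes BCRP, a pump that exports anthracyclines and urate. In MT+/+ hearts its probe set (1422906_at) read 410 and 402 under saline and 584 and 834 after DOX. In MT-/- hearts it read 360 and 461, then 551 and 944. All DOX arrays were above all saline arrays, and as with Sult1a1 the DOX array of replicate 2 was the brighter in both genotypes.

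Abcg2 rose by log2 0.76 ± 0.17 on average (adjusted p 0.0198). That call did not survive leaving out the first (0.0544) or second (0.0588) MT+/+ saline array, MT+/+ DOX 2 (0.0710) or MT-/- saline 1 (0.0764). In single genotypes it missed the threshold, at 0.70 ± 0.24 in MT+/+ (adjusted p 0.179, or 0.0270 blocked) and 0.82 ± 0.24 in MT-/- (0.0863, or 0.0098 blocked and 0.0206 without MT-/- DOX 1). The genotypes' responses differed by 0.12 (95% interval -0.65 to 0.89, adjusted p 1).

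Since whole hearts were measured, a change in the number of cells of a type and a change in RNA per cell cannot be told apart. Of 12 tested markers of endothelium, where Abcg2 and P-glycoprotein are prominent, 4 fell, 0 rose and 8 were not called after DOX on average, with a median of -0.17 (6.84% of all tested probe sets fell). Among the uncalled, Vwf had 0.51 (adjusted p 0.057) and Pecam1 0.26 (0.290). Their summed intensity was 16052 and 16156 in MT+/+ saline, 15125 and 13665 in MT+/+ DOX, 17499 and 17958 in MT-/- saline and 14920 and 15150 in MT-/- DOX, and no endothelial marker fell below percentile 82.7 of its array. Of 10 heart muscle markers 5 fell and 0 rose, with a median change of -0.12. Most lay at percentile 99.9 or above, where quantile normalization leaves little room to move, which limits the size of this median. Their summed deposited intensity was 129950 and 131910 in MT+/+ saline and 124070 and 123310 in MT+/+ DOX. It was 131270 and 133480 in MT-/- saline and 123380 and 118280 in MT-/- DOX. Of 8 fibroblast markers 6 were lower past the threshold and 0 higher, with a median of -1.34.

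Immune cell markers differed in their calls by genotype, a difference that no marker passed as an interaction. Of 5 neutrophil markers 3 rose in MT-/- hearts (median 1.09), where 2.83% of all tested probe sets rose. Mmp8, among these 3, had that median value. It read 43.1 to 126, at percentiles 21.9 to 65.5, so it lay below the array's median on some arrays. Its rise and the median are therefore a description. In MT+/+ hearts 0 were called (median -0.11), where 1.22% of all rose and 1.26% fell. S100a8 had 3.53 ± 0.50 (adjusted p 0.0059) in MT-/- and -0.11 ± 0.50 (0.944) in MT+/+. In MT-/- Ngp (0.35, adjusted p 0.393) and Camp (-0.04, 0.930) were not called. The summed intensity of the 5 was 671 and 1328 in MT+/+ saline and 855 and 822 in MT+/+ DOX. It was 605 and 558 in MT-/- saline and 3502 and 2826 in MT-/- DOX. Of 8 macrophage markers 4 fell in MT+/+ (median -0.92), where 1.26% of all fell. In MT-/- 1 fell (median -0.39), where 3.38% of all fell, and Cd163 was not called (0.54, adjusted p 0.104). Averaged over genotypes 7 of the 8 fell (median -0.69), where 6.84% of all fell. The neutrophil sums were thus highest on the arrays where Xdh was highest. The part of these shifts in the members' changes was not tested.

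Abcc1 encodes MRP1, a pump of the ABC family. Its brighter probe set (1452233_at) read 171 and 169 under saline and 202 and 203 with DOX in MT+/+ hearts. For MT-/- hearts the values were 170.0 and 194, then 207 and 241. All DOX arrays lay above all saline arrays, by a small margin. The change was 0.26 ± 0.08 on average (adjusted p 0.0825), which missed the threshold and passed with the replicate block (0.0270). The other probe set (1421378_s_at, whose suffix marks probes that can match more than a single gene) read 101 to 147 with overlap and had 0.17 ± 0.09 (adjusted p 0.281).

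Abcc4 encodes MRP4, an exporter of sulfate and glucuronide conjugates and of cyclic nucleotides. Its probe set (1443870_at) read 130 and 144 under saline and 109 and 138 with DOX in MT+/+ hearts. For MT-/- hearts the values were 130 and 150, then 147 and 197, with the DOX and saline arrays overlapping. The values had opposite signs in the genotypes, -0.13 ± 0.16 in MT+/+ (adjusted p 0.769) and 0.26 ± 0.16 in MT-/- (0.430), and their difference of 0.39 ± 0.23 did not pass (95% interval -0.13 to 0.91, adjusted p 1). After DOX it read higher in MT-/- than in MT+/+ by 0.43 ± 0.16 (adjusted p 0.573).

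None of the 11 probe sets differed between genotypes past the threshold. This was so under saline (0.186% of all tested probe sets called in either direction), after DOX (0.283%) and on average (0.905%), and 0 of 11 passed for the interaction (0% of all). At an unadjusted limma p under 0.05 there were 1, 2, 1 and 1 of the 11 in these comparisons, where 8.62%, 7.39%, 13% and 2.32% of all tested probe sets were, and at the adjusted threshold with the replicate block again 0. Besides Xdh these were Abcc4 after DOX and, averaged over treatments, the brighter Abcb1a probe set at -0.29 ± 0.12 (adjusted p 0.370).

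By mean log2 value the groups of Sult1a1, Xdh and Abcg2 ran from MT-/- saline through MT+/+ saline and MT+/+ DOX to MT-/- DOX. For the dimmer Abcb1a probe set MT+/+ saline was the lowest. For Sult1a1 the DOX groups overlapped (1666 and 2523 against 1497 and 3488), and for Abcg2 the groups of a treatment overlapped with each other, so their order within a treatment is not set by these arrays.

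**Figure D4:**
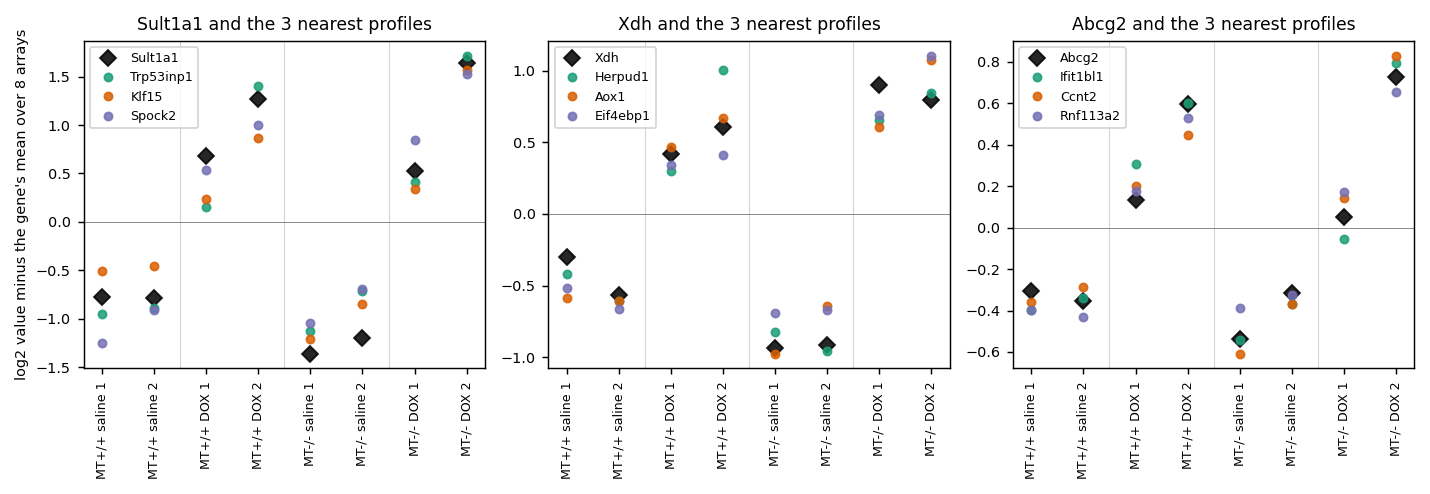
Log2 value on each of the 8 arrays minus the gene's own mean, for Sult1a1, Xdh and Abcg2 (black diamonds) and for the 3 genes with the smallest root mean square difference from each (coloured circles). Each plotted gene is higher on all 4 DOX arrays than on any of the 4 saline arrays.

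For the 3 member genes called on average, the genes with the most similar profile over the 8 arrays were found by the root mean square difference of log2 values, each centred on its own mean, over 13008 genes. Nearest to Sult1a1 were Trp53inp1, a p53-induced gene of autophagy (0.29 log2 units), Klf15, a transcription factor of fasting metabolism in heart (0.30), and the proteoglycan gene Spock2 (0.32), against a median of 1.11 over all genes. Nearest to Xdh were Herpud1, a gene of protein disposal at the endoplasmic reticulum (0.18), Aox1 (0.20) and the translation repressor gene Eif4ebp1 (0.21), against a median of 0.73. Aox1 encodes aldehyde oxidase, a molybdenum and flavin enzyme of the same family as xanthine dehydrogenase. Nearest to Abcg2 were Ifit1bl1 (0.08), the elongation factor cyclin gene Ccnt2 (0.09) and Rnf113a2 (0.09), against a median of 0.47. The nearest genes lie below the median by the way they were picked, so the medians only give a scale. These profiles are descriptions of 8 shared arrays that split by treatment.

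Other genes of DOX handling were read from 8 lists, by the brightest tested probe set of each gene. Of 154 listed genes 104 were tested, and after DOX on average 15 rose and 13 fell, with a median of 0.01. Over all tested probe sets 7.03% rose and 6.84% fell, so in a list of 10 to 22 genes a call or so in each direction is near that share.

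Among 13 other carbonyl, aldo-keto and quinone reductases 2 rose and 5 fell, with a median of -0.23. The quinone reductase gene Nqo1, which passes electrons in pairs and so avoids the semiquinone, rose by 1.58 ± 0.11 (adjusted p 1.5e-04), and the xylulose reductase gene Dcxr rose by 0.80 (0.0078). The aldo-keto reductase gene Akr1c14 fell by 1.11 ± 0.11 (adjusted p 5.7e-04) and the carbonyl reductase gene Cbr2 by 0.87 (0.0033). The enzyme class to which Cbr1 and Cbr3 belong thus held genes called in both directions.

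Of 14 other flavin reductases and their partners 2 rose and 2 fell. Aox1 rose by 1.41 ± 0.13 (adjusted p 5.0e-04) and the thioredoxin reductase gene Txnrd1 by 0.50 (0.0399), while its mitochondrial relative Txnrd2 fell by 0.42 (0.0179) and Cybb, the NADPH oxidase subunit of phagocytes, by 0.62 (0.0261). Around Xdh in purine breakdown 1 of 10 rose and 0 fell. It was Nt5c2, which removes phosphate from purine nucleotides (0.47, adjusted p 0.0092).

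Around Sult1a1, among 10 conjugation genes, Papss2, which makes the activated sulfate that sulfotransferases use, rose by 0.66 ± 0.11 (adjusted p 0.0066), and the oestrogen sulfotransferase gene Sult1e1 fell by 0.45 (0.0337). No other gene of that list was called. Among 14 cytochrome P450s, monooxygenases and hydrolases 6 rose and 1 fell. The rises included Fmo2 (1.69, adjusted p 4.4e-04), the epoxide hydrolase gene Ephx1 (1.34, 1.9e-04), Cyp1b1 (1.11, 0.0026) and Cyp2d22 (0.75, 0.0011).

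Of 22 other ABC transporters 1 rose and 3 fell, with a median of 0.00. Abca5 rose by 0.52 (adjusted p 0.0387), while the peroxisomal fatty acid carrier gene Abcd3 fell by 0.48 (0.0115), Abca9 by 0.53 (0.0146) and Abca8a by 0.64 (0.0206). Among 11 uptake carriers and the vault protein the anion carrier gene Slco3a1 rose by 0.60 (0.0075) and Mvp, the major vault protein, by 0.40 (0.0172). Of 10 xenobiotic sensors the glucocorticoid receptor gene Nr3c1 fell by 0.61 (0.0135) and the others were not called.

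**Figure D5:**
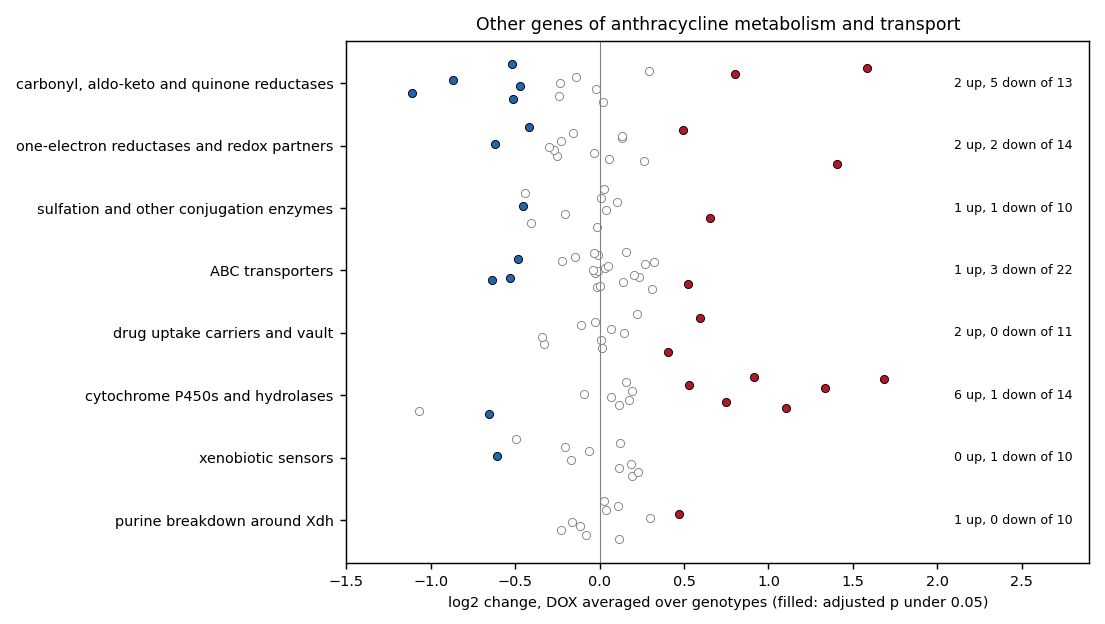
Log2 change after DOX averaged over genotypes for the 104 tested genes of 8 lists, red where higher and blue where lower at adjusted p under 0.05 and open otherwise, with the counts at the right. Calls in both directions appear among the reductases (2 higher, 5 lower) and 6 of 14 P450s, monooxygenases and hydrolases are higher.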

How the data were processed

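RNA of 8 mouse hearts was read on one-colour Affymetrix arrays, with biotin-labelled cRNA made from 2 µg of Trizol-extracted RNA per the labels' protocols. The deposited values are linear intensities, 1 per probe set and array, made with GCOS 1.4 per the submitters' processing notes. Which signal algorithm and scaling target were used was not given in the sources used here. Gene names came from the platform annotation, using probe sets with 1 symbol. After removal of 64 controls, intensities were quantile-normalized and tested as log2(intensity + 16), a scale that compresses small signals. A probe set was tested where its deposited value reached the array's median on 2 or more arrays (24751). limma 3.58.1 in R 4.3.3 fitted 4 group means over all arrays (eBayes with trend, 4 residual and 4.66 prior degrees of freedom). There were 7 comparisons, with two-sided p-values adjusted by Benjamini-Hochberg over all tested probe sets and a threshold of 0.05. Errors after ± are limma standard errors, 2 arrays per group, and this number limits the precision.

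Same-numbered arrays deviated together in all 6 pairs of groups (correlation of the differences between replicates 0.360 to 0.542), a pairing seen in the data and not stated in the labels, and blocked values are given where a call changes. The p-values weigh a change against the spread between these arrays, pooled over the 4 groups and moderated by eBayes. They speak of these samples only. Members and lists were chosen with earlier results of these data known. All member probe sets are described. From each list up to 4 genes called for DOX averaged with the smallest p are named, and 3 nearest profiles for each called member gene. Sequences are RefSeq's (GRCm38.p6). Alternatives tried were the deposited scaling, median centring, pseudocounts of 1 and 64, no filter, a stricter filter, no trend, only the groups compared, the replicate block, the mean of a gene's probe sets, and leaving out each array.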

Additional observations from a re-analysis of the deposited data

How the results depend on the processing

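The members' values were recomputed 1269 times under the alternatives. In these 13 calls were lost, 10 were gained and 0 called values changed sign, while 54 uncalled values did. All 13 losses came from leaving out an array. The 8 calls of members for DOX therefore stood under the deposited scaling, median centring, both other pseudocounts, both other filters, eBayes without the trend, the replicate block and, where it applied, the fit of only the groups compared. The mean of the probe sets gave Abcb1a a call for DOX averaged. The count of member probe sets called went from 2 to 4 in MT+/+ and from 2 to 5 in MT-/- with the replicate block. With 1 array left out it ranged from 0 to 2 in MT+/+, 2 to 3 in MT-/- and 3 to 4 on average, and was 0 throughout for the genotype comparisons and the interaction. A group left with 1 array is assumed to vary like the others. Over all probe sets the calls with an array left out ranged from 23 to 759 in MT+/+ (613 with all arrays), 376 to 1998 in MT-/- (1538), 1753 to 3838 averaged (3433), 13 to 50 for genotype under saline (46), 23 to 71 under DOX (70), 88 to 202 averaged (224) and 0 to 1 for the interaction (0). With the replicate block these counts were 2740, 4188, 6702, 209, 383, 1202 and 1. With only the groups compared they were 948 for DOX in MT-/- and 36 for genotype under DOX. The cause of these moves beyond the smaller number of arrays was not tested. Under median centring 317 probe sets were higher and 216 lower for DOX in MT+/+ (301 and 312 in the report), and 141 and 81 for genotype averaged (109 and 115). No scaling moved the median of all tested probe sets by over 0.1. The untested Abcb1b probe set lay below its array's median on all 8 arrays, the tested one on all 4 saline arrays and 1 DOX array, and the dimmer Abcb1a probe set on 3 of 4 saline arrays, so their saline values are the least certain.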
